A study of Homo sapiens with 12 samples.

Results

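The ERK pathway feedback genes are 10 genes whose transcripts are known to follow the activity of the RAS, RAF, MEK and ERK kinases. They were chosen by name from the 58302 genes of the deposited table, after earlier results of the same data had shown ETV4 to be lower and PHLDA1 to be higher in OCI-LY3 cells under selinexor. Of the 10 genes, 9 passed a filter on low counts and SPRY2 did not. The selinexor response in OCI-LY3 was therefore used in choosing the genes and is given here as a description without a test, whereas the response of SU-DHL6 cells comes from libraries that the choice did not use. RNA sequencing had been carried out on 12 libraries, 3 in each of 4 groups. The groups were untreated OCI-LY3, selinexor-treated OCI-LY3, untreated SU-DHL6 and selinexor-treated SU-DHL6. Both are established lines of diffuse large B-cell lymphoma, labelled ABC-DLBCL (activated B-cell type) for OCI-LY3 and GCB-DLBCL (germinal centre B-cell type) for SU-DHL6. Both lines are labelled WT, with no engineered allele named, and each type of lymphoma is represented by a single line. Selinexor is an inhibitor of XPO1, the export receptor that carries many proteins out of the nucleus. Doses of 300 and 100 nM and exposures of 24 and 48 h appear in the protocols, without saying which library or line received which, so the lines may have differed in both. Untreated cells were kept without the drug for the same times.

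ERK signalling passes from RAS to the RAF kinases, to MEK and then to ERK, which enters the nucleus and changes the activity of transcription factors. Active ERK raises the transcripts of its own antagonists, so that the pathway is restrained at several levels. The dual-specificity phosphatases (DUSPs) remove phosphate from ERK, the Sprouty (SPRY) and SPRED proteins act upstream at RAS and RAF, and the ETS factors ETV4 and ETV5 carry part of the transcriptional output. Several of these genes are bound by the repressor CIC, which ERK relieves, and their transcripts are often read as a measure of pathway output. In B cells the pathway is driven by the B-cell receptor through RASGRP exchange factors, among other inputs.

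Each library held 14210200 to 16405842 counts. Pearson correlations between replicates on the log2 CPM scale were 0.9937 to 0.9961, and no 2 replicates agreed within sampling noise, so each was counted as 1 sample. The design text calls the libraries biological triplicates but does not say how the cultures were set up, so p-values measure the spread between these samples. The first untreated SU-DHL6 library stood further from its replicates than any other library did, with a chi-square of 29.62 and 25.77 per gene against them, where the other 2 differed by 14.63. The B-cell markers MS4A1, CD79A, CD79B, PAX5, CD22 and CD74 were detected in all 4 groups. In OCI-LY3 the summed level of 5 T-cell markers was 0.0702 to 0.627 CPM in untreated and 3.16 to 4.89 CPM in treated libraries, with CD3D, CD3G and CD2 at 0 in both. The summed level of 5 myeloid markers there was 29.3 to 32 CPM untreated and 19.3 to 21.5 CPM treated, with CD14, LYZ and FCGR3A at 0, and that of 6 fibroblast and epithelial markers was 24.8 to 25.9 CPM untreated and 28.4 to 38.6 CPM treated. In SU-DHL6 none of these 3 sums exceeded 0.72 CPM. The part of these markers in the results was not tested. In bulk RNA, fewer cells of a kind and less RNA per cell cannot be told apart.

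In SU-DHL6, 5 of the 9 feedback genes that passed the filter fell under selinexor, 1 rose and 3 did not pass the test. ETV4, ETV5, DUSP5, SPRY4 and SPRED2 fell, and DUSP6 rose from a very low level. DUSP6 had passed the filter only through the treated SU-DHL6 libraries, where it is high. Across all 16474 genes tested, 22.8% were lower and 20.4% were higher in the same comparison (edgeR quasi-likelihood F test, adjusted p under 0.05 by Benjamini-Hochberg over all genes). The median log2 fold change of the 9 genes was -0.72, also with SPRY4 set to the bound that its counts allow, and -0.60 when DUSP4, with 2 counts in SU-DHL6, was left out as well, against 0.0028 over all genes tested. The genes were chosen with results of these data known, so their share is a description of these genes only. Fold changes are relative to TMM-scaled library totals, on which the median gene hardly moves. Relative to total counts the median of all genes moved to 0.27 in SU-DHL6 and to -0.09 in OCI-LY3. On that scaling 5451 genes were higher and 2367 lower in SU-DHL6, in place of 3365 and 3758, and 2 of the feedback genes were higher (DUSP6 and SPRED1) and 3 lower (ETV4, ETV5 and SPRY4). The genes whose call depends on it are named below.

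**Figure D1:**
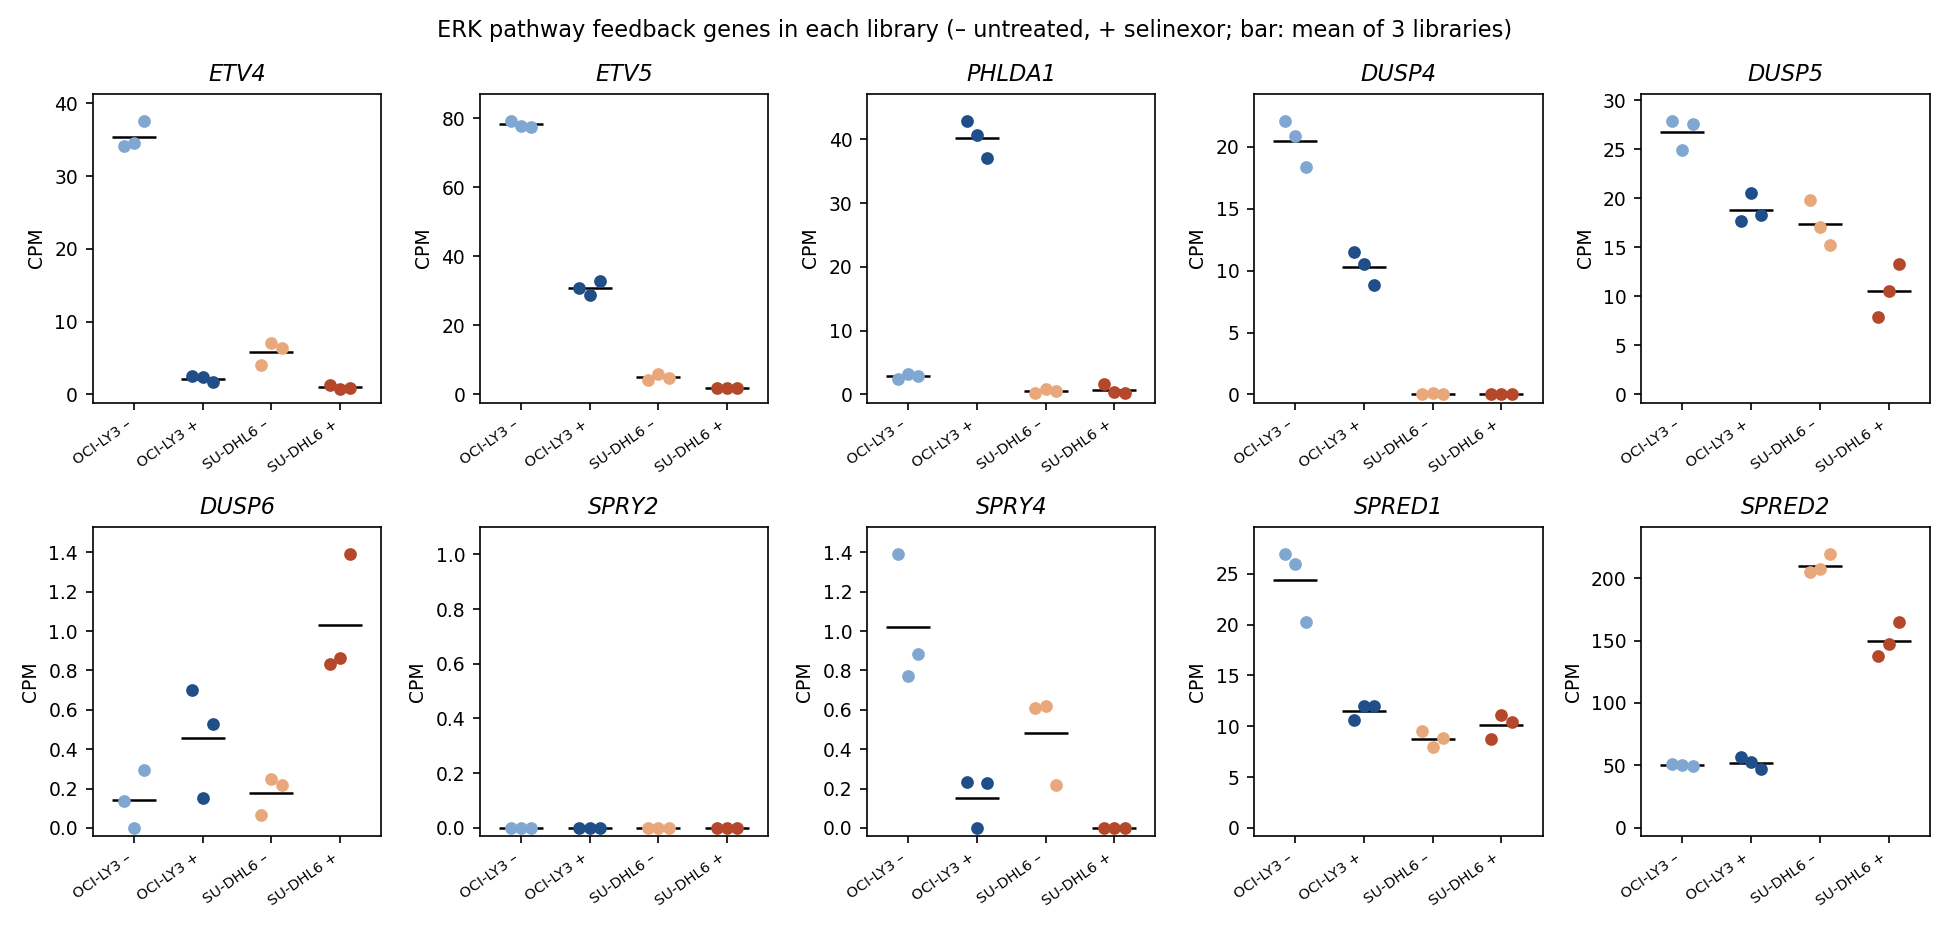
CPM (counts relative to TMM-scaled library totals) of the 10 feedback genes, 1 panel per gene with its own axis from 0. Points are libraries, minus and plus mark untreated and selinexor-treated cells, and bars are means of 3 libraries. ETV4 and ETV5 were highest in untreated OCI-LY3, PHLDA1 stood at 37 to 42.9 CPM in treated OCI-LY3, and SPRED2 was highest in untreated SU-DHL6.

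Both transcription factors of the group fell in SU-DHL6. ETV4 (ENSG00000175832, chr17:43527844-43579620 on GRCh38, minus strand) encodes an ETS factor of the PEA3 group. Its counts were 60, 113 and 89 in untreated and 24, 13 and 17 in treated SU-DHL6 libraries, that is 4.07, 7.02 and 6.43 against 1.33, 0.703 and 0.909 CPM. All 3 treated libraries lay below all 3 untreated ones. ETV4 fell by 2.57 ± 0.26 (SE) on the log2 scale, 5.93-fold, with an edgeR adjusted p of 3.0e-06. In OCI-LY3, where ETV4 was a reason for choosing these genes, counts were 490, 491 and 512 untreated and 32, 31 and 22 treated, or 34.1, 34.5 and 37.6 against 2.48, 2.33 and 1.66 CPM. The log2 fold change there was -4.03 ± 0.24, a 16.4-fold lower level, and the treated OCI-LY3 libraries came down below the untreated SU-DHL6 libraries. An ETV4 exon shares 68 bases with DHX8 on the other strand. DHX8 had 3462 counts over the untreated and 4177 over the treated SU-DHL6 libraries. The strand setting of the counting is not given in the sources used here, so reads in those bases cannot be told apart.

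ETV5 (ENSG00000244405, chr3:186046308-186110318, minus strand), the closest relative of ETV4 among these genes, also fell in SU-DHL6. It had 61, 95 and 67 counts in untreated and 33, 35 and 37 in treated SU-DHL6 libraries, or 4.14, 5.9 and 4.84 against 1.83, 1.89 and 1.98 CPM. The groups did not overlap, and the treated libraries varied little. The log2 fold change was -1.38 ± 0.15, 2.61-fold, with an edgeR adjusted p of 5.4e-06. In OCI-LY3 counts were 1138, 1110 and 1056 untreated and 397, 384 and 435 treated, a log2 fold change of -1.34 ± 0.12, so the log2 values of ETV5 in the 2 lines lay within an SE of each other although its level was far higher in OCI-LY3. The difference between the lines was not tested for any feedback gene, because the genes were chosen on the OCI-LY3 response. ETV5 shares 164 exonic bases with DGKG on its own strand, which had 172 counts over untreated OCI-LY3, 79 over treated OCI-LY3 and at most 1 in either group of SU-DHL6.

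PHLDA1 (ENSG00000139289, chr12:76025447-76033932, minus strand) encodes a pleckstrin homology-like domain protein whose transcript is among those induced through ERK. In OCI-LY3, where it was the other reason for the choice, counts were 35, 46 and 40 untreated and 552, 541 and 490 treated. These are 2.44, 3.23 and 2.94 against 42.9, 40.7 and 37 CPM, a log2 fold change of 3.80 ± 0.41. Over the 3 libraries of each group, 121 counts stood against 1583, a ratio of 14. In SU-DHL6 it had 3, 14 and 7 counts untreated and 29, 8 and 4 treated, and the groups overlapped. The log2 fold change was 0.47 ± 0.64, which did not pass the test (edgeR adjusted p 0.589), and the summed counts of 24 and 41 gave a ratio of 1.38 with an interval of 0.815 to 2.39. That value rested on the first treated library: without it the log2 fold change was -0.71 with an adjusted p of 0.281.

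The phosphatases differed among themselves. DUSP6 (ENSG00000139318, chr12:89347232-89353271, minus strand), a cytoplasmic phosphatase that is selective for ERK, rose in SU-DHL6. It had 1, 4 and 3 counts in untreated and 15, 16 and 26 in treated SU-DHL6 libraries, or 0.0678, 0.249 and 0.217 against 0.831, 0.865 and 1.39 CPM. Every treated library lay above every untreated one, and the rise was 2.47 ± 0.64 on the log2 scale (edgeR adjusted p 0.00664). DUSP6 passed the filter on low counts through the treated SU-DHL6 libraries, where it is high, so that its place among the genes tested already depended on that group. The summed counts of 8 and 57 gave a ratio of 5.76 with an exact 95% interval of 2.73 to 14. In OCI-LY3 counts were 2, 0 and 4 untreated and 9, 2 and 7 treated, the groups overlapped, and the log2 fold change was 1.63 ± 0.79. That value was 2.58 without the third untreated OCI-LY3 library. An antisense gene, AC024909.2, shares 1875 exonic bases with DUSP6 but held only 1 to 4 counts per group, and how reads in those bases were assigned is not stated.

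DUSP5 (ENSG00000138166, chr10:110497838-110511544, plus strand), a nuclear phosphatase that acts on ERK, fell in SU-DHL6 by less. CPM were 19.8, 17.1 and 15.2 untreated and 7.86, 10.5 and 13.3 treated, from 292, 275 and 210 counts against 142, 194 and 248. The CPM ranges did not overlap, but the highest treated library came close to the lowest untreated one, and the counts themselves overlapped. DUSP5 fell by 0.72 ± 0.17 on the log2 scale (edgeR adjusted p 0.00368), and with total counts in place of TMM it was -0.45 with an adjusted p of 0.0613, which is not past the threshold. In OCI-LY3 counts were 401, 355 and 375 untreated and 228, 272 and 243 treated, a log2 fold change of -0.51 ± 0.17.

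DUSP4 (ENSG00000120875, chr8:29333064-29350668, minus strand), another nuclear phosphatase of ERK and other MAP kinases, was detected mainly in OCI-LY3. It had 317, 298 and 251 counts in untreated and 148, 140 and 117 in treated OCI-LY3, or 22.1, 20.9 and 18.4 against 11.5, 10.5 and 8.83 CPM, with a log2 fold change of -0.99 ± 0.22. In SU-DHL6 only the second untreated library held any count, and it held 2. The 3 treated libraries held 0 counts, which allows a level of up to 0.0543 CPM (3 counts over the group), so a response of DUSP4 was not detectable in SU-DHL6 at this depth (edgeR adjusted p 0.134).

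**Figure D2:**
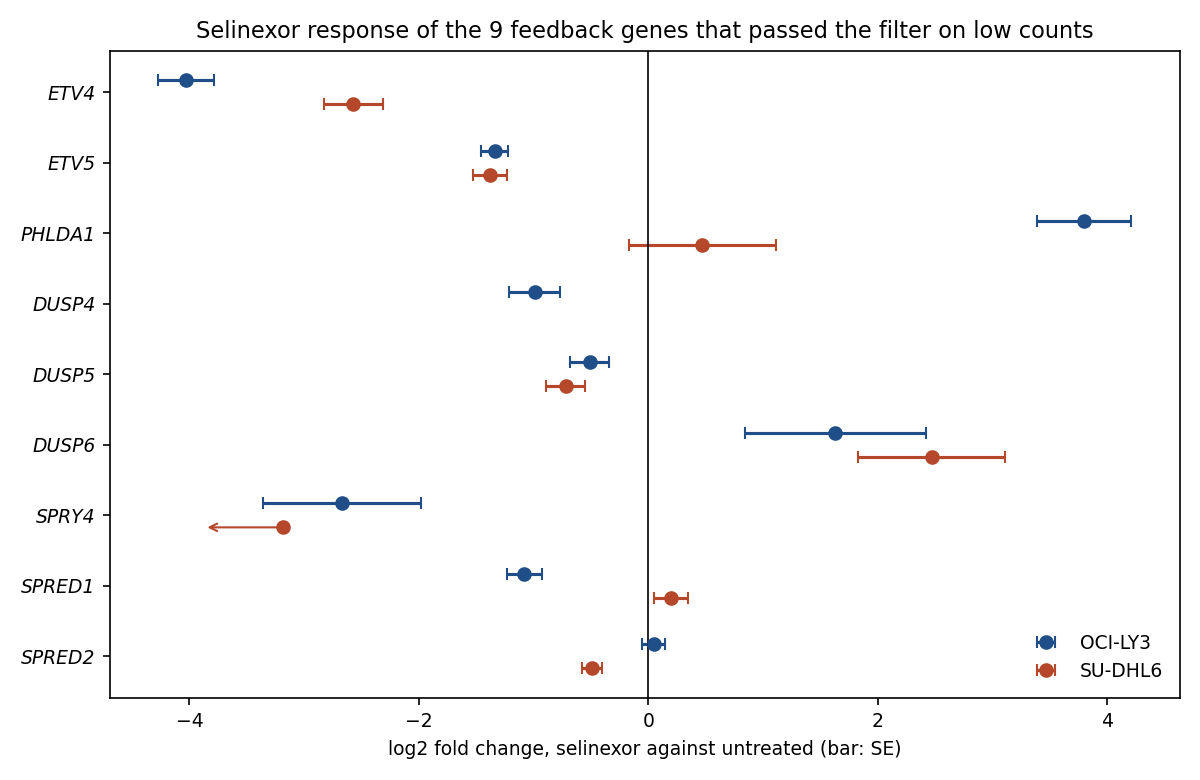
Log2 fold change of selinexor-treated against untreated cells for 9 feedback genes, with the standard error as a bar, in OCI-LY3 (blue, the comparison used in choosing the genes) and SU-DHL6 (red). The arrow at SPRY4 marks a bound of -3.18, from a floor of 3 counts in treated SU-DHL6 with the untreated counts taken as exact. DUSP4 is not drawn in SU-DHL6, where it had 2 counts in all. ETV4 lies far to the left in both lines and DUSP6 to the right in both, and PHLDA1 is at 3.80 in OCI-LY3 and at 0.47, with an SE that spans 0, in SU-DHL6.

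The Sprouty and SPRED proteins restrain the pathway upstream of ERK. SPRY2 (ENSG00000136158, chr13:80335976-80340951, minus strand) had 0 counts in all 12 libraries, which allows a level of at most 0.0543 to 0.0761 CPM (3 counts over a group). SPRY4 (ENSG00000187678, chr5:142310427-142326455, minus strand) was low and fell in SU-DHL6. It had 9, 10 and 3 counts in the untreated and 0 in each treated SU-DHL6 library. With a floor of 3 counts over the treated group, its level was at least 9.07-fold lower in treated cells (edgeR adjusted p 0.00193). That bound takes the 22 counts over the untreated group as exact and leaves out their counting error. In OCI-LY3 it had 20, 11 and 12 counts untreated and 3, 0 and 3 treated, a log2 fold change of -2.67 ± 0.69. The summed counts of 43 and 6 there gave a ratio of 0.149.

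SPRED1 (ENSG00000166068, chr15:38252326-38357249, plus strand), which binds neurofibromin and brings it to RAS, did not pass the test in SU-DHL6. In OCI-LY3 it had 386, 371 and 275 counts untreated and 137, 159 and 159 treated, a log2 fold change of -1.08 ± 0.15. In SU-DHL6 it had 141, 128 and 122 counts untreated and 158, 205 and 195 treated. The CPM of 9.56, 7.95 and 8.81 against 8.75, 11.1 and 10.4 overlapped, and the log2 fold change was 0.20 ± 0.15 (edgeR adjusted p 0.313). Relative to total counts it was 0.47 with an adjusted p of 0.0316.

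SPRED2 (ENSG00000198369, chr2:65310851-65432637, minus strand) held most of the counts of these genes in SU-DHL6 and fell there by a small amount. It had 3017, 3332 and 3029 counts untreated and 2492, 2721 and 3087 treated, or 205, 207 and 219 against 138, 147 and 165 CPM. The CPM did not overlap and SPRED2 fell by 0.49 ± 0.09 on the log2 scale (edgeR adjusted p 0.000815). Relative to total counts it was -0.22 with an adjusted p of 0.0793, which is not past the threshold. In OCI-LY3 it had 730, 721 and 678 counts untreated and 726, 700 and 627 treated, the CPM overlapped, and the log2 fold change was 0.05 ± 0.10, or -0.07 relative to total counts.

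In OCI-LY3, 22.2% of all genes tested were lower and 22.2% were higher under selinexor. The choice of the feedback genes used this comparison, so they are not counted against that share. Both comparisons have their own untreated libraries. Leaving aside DUSP4, which was near 0 counts in SU-DHL6, ETV4, ETV5, DUSP5 and SPRY4 had a negative value in both lines. DUSP6 and PHLDA1 had a positive value in both. The groups overlapped for DUSP6 in OCI-LY3 and for PHLDA1 in SU-DHL6. PHLDA1 did not pass the test in SU-DHL6, and its sign there turned without the first treated library. SPRED1 was lower by 1.08 in OCI-LY3 against 0.20 higher in SU-DHL6, and SPRED2 was at 0.05 against -0.49.

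Promoter windows of 6 of the 10 genes were found in the RefSeq table on GRCh38.p14, 9 windows in all, and the 250 bases before each start were searched on both strands. The motifs were CCGGAA (an ETS factor core), TGAATGAA and TGAATGGA (both bound by CIC), TGANTCA (AP-1) and GGGCGG (SP1). Of 35116 windows in the table, 14.5%, 1.4%, 0.832%, 6.57% and 42.6% held them, in that order. CCGGAA was found once in the PHLDA1 window and once in the window of the first SPRY2 start. GGGCGG was found in the windows of PHLDA1, SPRY4 and SPRED1 and 2 times in that of the first SPRY2 start. None of the 5 motifs was found in the DUSP6 window, in either SPRED2 window or in the other 2 SPRY2 windows, and neither CIC motif nor the AP-1 motif was found in any of the 9. A match is a string of letters in a window and not a site that was measured, and no match says only that these letters are absent there. The 2 stretches shown belong to the genes that fell in SU-DHL6 and had a window with bases outside annotated exons. A second SPRED2 window that also had such bases is not shown. Both stretches lie outside exons, but that of SPRY4 is within the annotated span of its gene. They are read 5′ to 3′ on the gene's strand, chr5:142324418-142324497 (minus strand) for SPRY4 and chr2:65432638-65432849 (minus strand) for SPRED2, and capitals mark GGGCGG.
SPRY4: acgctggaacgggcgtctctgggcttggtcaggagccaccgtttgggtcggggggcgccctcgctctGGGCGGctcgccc
SPRED2: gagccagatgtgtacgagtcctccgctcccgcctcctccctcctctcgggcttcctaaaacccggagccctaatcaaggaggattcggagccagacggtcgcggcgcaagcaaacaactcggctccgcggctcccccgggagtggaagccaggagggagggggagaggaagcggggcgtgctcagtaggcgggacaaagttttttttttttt
Both stretches are rich in G and C, at 73.8% for SPRY4 and 61.8% for SPRED2, and only the SPRY4 stretch holds one of the motifs searched for.

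Compared per length with the deposited FPKM values, the 2 untreated lines ranked the genes differently. In untreated OCI-LY3, ETV5 was highest at 9.34 ± 0.196 FPKM (SD, n = 3), followed by DUSP5 at 8.07 ± 0.551, SPRED2 at 6.03 ± 0.11 and ETV4 at 4.66 ± 0.235. The ranges of these 4 neighbours did not overlap. SPRED1 at 2.66 ± 0.41 and DUSP4 at 2.39 ± 0.234 FPKM did overlap. PHLDA1 at 0.261, SPRY4 at 0.108 and DUSP6 at 0.0168 FPKM followed, the last overlapping with SPRY2 at 0.

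In untreated SU-DHL6, SPRED2 led at 26.4 ± 0.692 FPKM, well above DUSP5 at 5.5 ± 0.932 FPKM. SPRED1 at 1.01 ± 0.123 and ETV4 at 0.801 ± 0.193 overlapped, as did ETV4 and ETV5, the latter at 0.619 ± 0.0971 FPKM. SPRY4, PHLDA1, DUSP6 and DUSP4 lay at 0.0539, 0.0497, 0.0214 and 0.005 FPKM, each overlapping with the next. Under selinexor the order in OCI-LY3 changed most for PHLDA1, which at 3.38 ± 0.211 FPKM overlapped with ETV5 at 3.4 ± 0.231 FPKM, and for ETV4, which at 0.262 ± 0.0508 FPKM lay below DUSP4. In treated SU-DHL6, SPRED2 at 22.7 ± 2.7 and DUSP5 at 4.02 ± 1.13 FPKM still led, and DUSP6 at 0.152 ± 0.0504 overlapped with ETV4 at 0.162 ± 0.0494 FPKM.

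**Figure D3:**
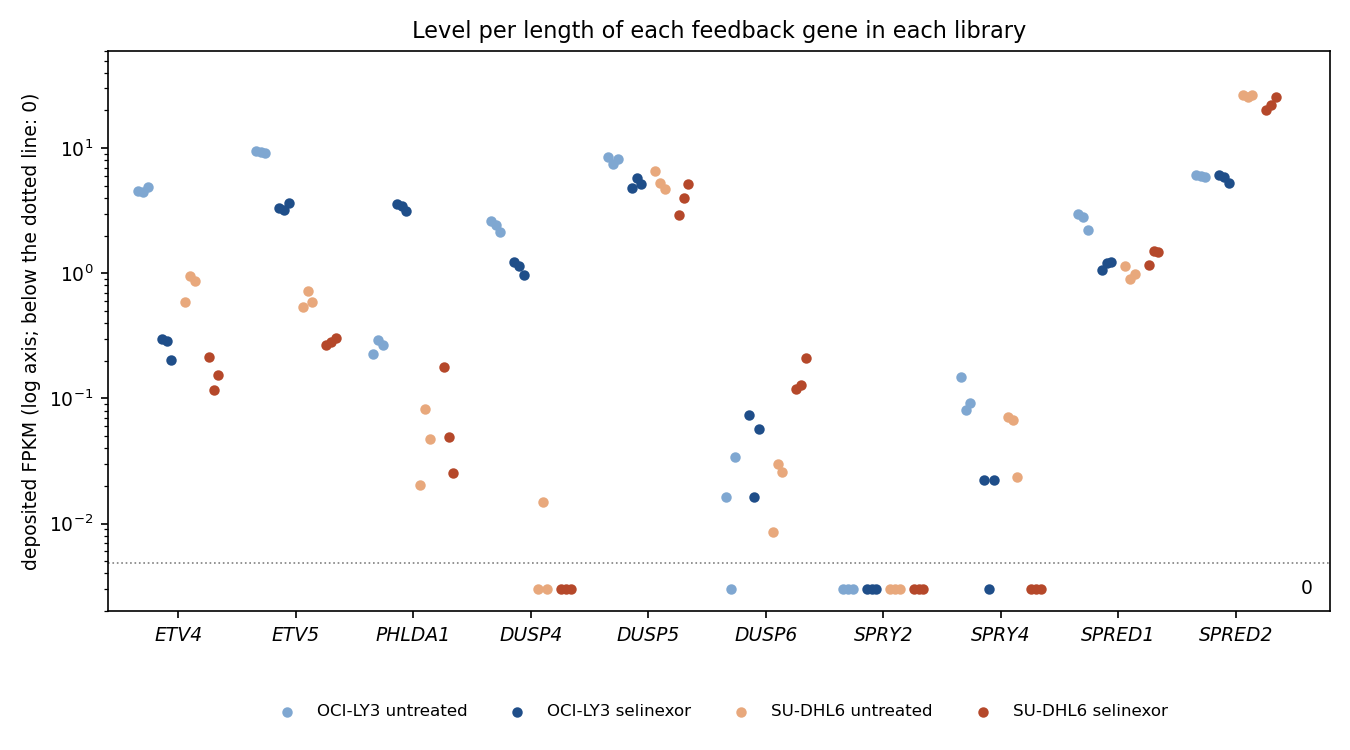
Deposited FPKM of each feedback gene in each library on a log axis, with libraries at 0 drawn below the dotted line. The 4 colours are the 4 groups. SPRED2 lies above 20 FPKM in every SU-DHL6 library and near 6 FPKM in OCI-LY3, whereas SPRY2 is at 0 throughout.

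Between the untreated lines, 7 feedback genes could be tested, since ETV4 and PHLDA1 were chosen on the same untreated OCI-LY3 libraries and SPRY2 had no counts. Of these 7, 4 were higher and 1 was lower in OCI-LY3, against 33.6% higher and 33.7% lower among all genes tested. ETV5 was higher in OCI-LY3 by 3.97 ± 0.13 on the log2 scale, 15.7-fold, with an edgeR adjusted p of 4.3e-12. SPRED1 was higher by 1.47 ± 0.15 (adjusted p 8.1e-07) and DUSP5 by 0.63 ± 0.17 (adjusted p 0.00431). DUSP4 had 866 counts over untreated OCI-LY3 and 2 over untreated SU-DHL6, with an edgeR adjusted p of 1.5e-09. The ratio was 458, with an exact 95% interval of 126 to 3790 for counting error only. DUSP4 passed the filter on low counts only through the OCI-LY3 libraries, where it is high. Its place among the 4 higher genes therefore already depended on that line. SPRED2 was lower in OCI-LY3, at a log2 difference of -2.06 ± 0.10, 4.17-fold, with an adjusted p of 1.6e-10.

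The remaining 2 tested genes did not pass. SPRY4 was at 1.04 ± 0.55 on the log2 scale (adjusted p 0.11), although its 3 OCI-LY3 libraries all lay above the SU-DHL6 ones. DUSP6 was at -0.31 ± 0.91 (adjusted p 0.774), and the sign of that value turned to 0.25 without the second untreated OCI-LY3 library and to 0.02 without the second untreated SU-DHL6 library. For the 2 genes given without a test, ETV4 was higher in untreated OCI-LY3 by 2.60 ± 0.22 and PHLDA1 by 2.41 ± 0.55 on the log2 scale.

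Genes with a pattern like that of ETV4 or PHLDA1 were searched for among the 8693 genes whose log2 CPM averaged 3 or more, by the Pearson r of log2 CPM over the 12 libraries. The 12 points fall into 4 groups and share library scaling, so r is a measure of likeness and carries no test. PLK1 was most like ETV4, at r = 0.9908, with group means of 233 ± 30.1, 64.6 ± 12, 106 ± 16.6 and 44.5 ± 2.78 CPM (SD, n = 3) in untreated and treated OCI-LY3 and untreated and treated SU-DHL6. ARF6 at r = 0.9834 and UBALD2 at r = 0.9825 followed. PDK2 was most like PHLDA1, at r = 0.9858, with 21.3 ± 6.93, 68 ± 6.42, 7.5 ± 1.69 and 8.43 ± 2.58 CPM in the same groups. AP1S1 at r = 0.9833 and FCGRT at r = 0.9825 followed. The 3 genes most like ETV4 had their highest mean in untreated OCI-LY3, and the 3 most like PHLDA1 in treated OCI-LY3. That comes with picking them by r and is no separate result.

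The other genes of the pathway were taken from lists by role, 83 genes of which 76 were tested. In SU-DHL6, 13 of the 76 were higher and 25 lower, and in OCI-LY3 16 were higher and 22 lower. Of all genes tested, 20.4% were higher and 22.8% lower in SU-DHL6, and 22.2% higher and 22.2% lower in OCI-LY3. The same shares stand behind the counts by list below, which describe small lists only. The median log2 fold change of the 76 genes was -0.14 in SU-DHL6 and -0.03 in OCI-LY3. Relative to total counts the SU-DHL6 split turned to 22 higher and 17 lower, and in OCI-LY3 it was 11 and 26. On that scaling the median of all genes tested also moved, to 0.27 in SU-DHL6 and -0.09 in OCI-LY3. Among all genes tested, 36.9% had responses that differed between the lines (SU-DHL6 minus OCI-LY3, either direction), and among the 76 pathway genes 30 did, 11 with a higher and 19 with a lower value in SU-DHL6. That split became 25 and 13 relative to total counts.

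**Figure D4:**
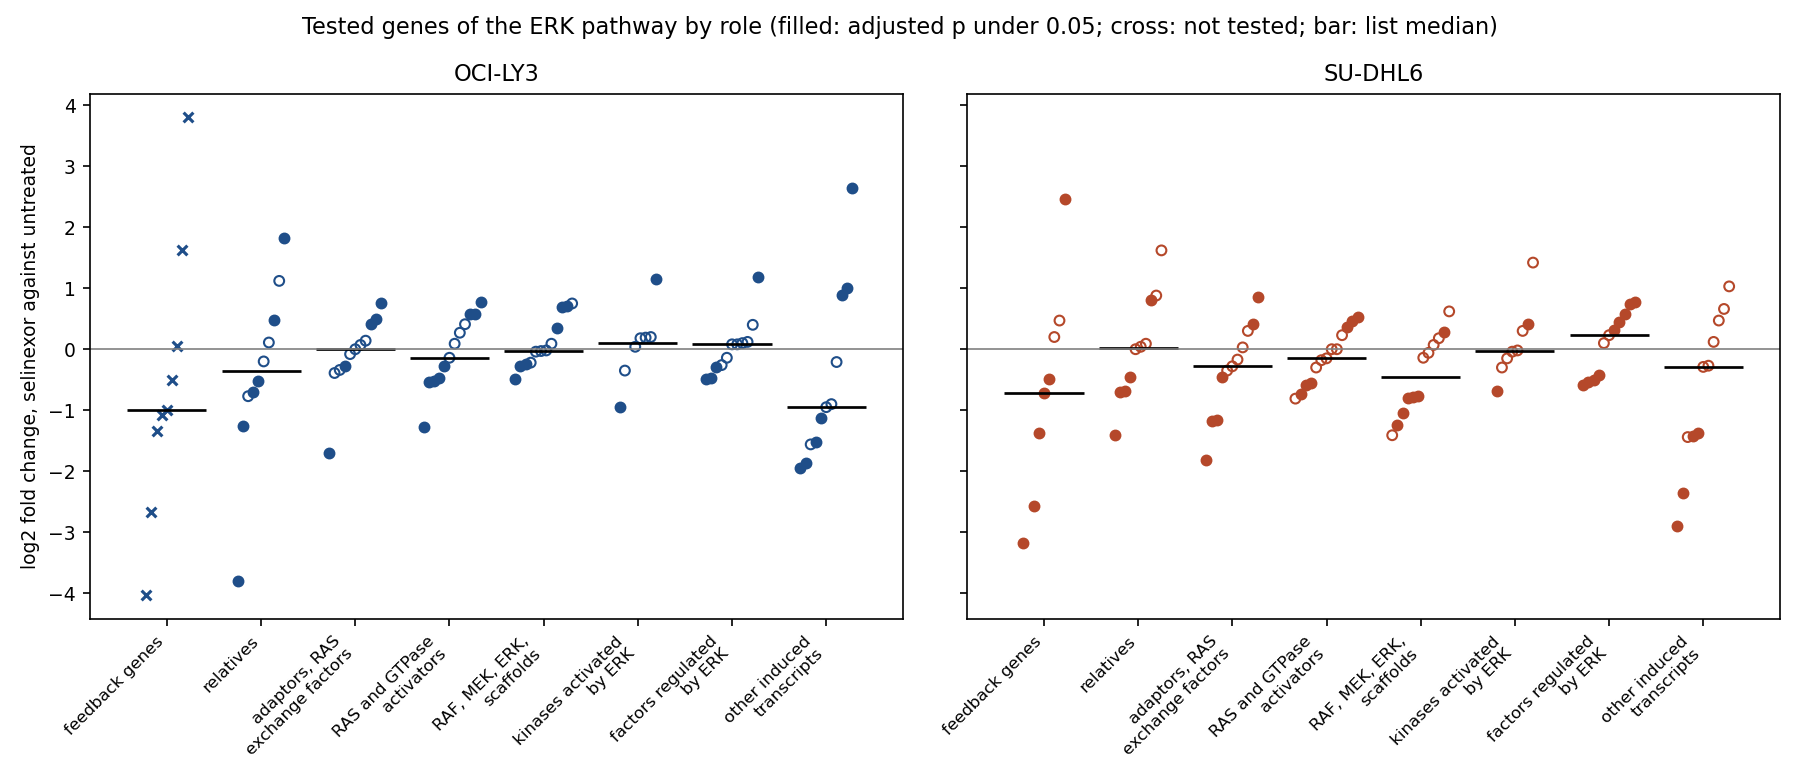
Log2 fold change under selinexor in OCI-LY3 (left) and SU-DHL6 (right) for the feedback genes and 7 lists of other ERK pathway genes. Filled points passed the test, open points did not, crosses are feedback genes in the comparison used to choose them, and bars are medians over all tested genes of a list. SPRY4 in SU-DHL6 is drawn at its bound of -3.18, and DUSP4 there and RASA3 and RPS6KA6 in OCI-LY3, with a group at 0 counts, are left out. The bar of the feedback genes in SU-DHL6 is at -0.72 with DUSP4 included, and their median is -0.60 without it.

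Relatives of the feedback genes that were not chosen did not move as a block. In SU-DHL6, 1 of 10 tested relatives rose and 4 fell, and in OCI-LY3 2 rose and 4 fell. DUSP10, a phosphatase of the stress-activated kinases p38 and JNK, had a log2 fold change of -1.41 ± 0.19 in SU-DHL6 (adjusted p 3.9e-05) and was at -0.20 ± 0.16 in OCI-LY3. DUSP1, a nuclear phosphatase that is induced early by many stimuli, rose in OCI-LY3 from 25.4, 22.7 and 24.5 to 79.7, 86.9 and 91.7 CPM, a log2 fold change of 1.83 ± 0.13 (adjusted p 7.2e-08). It was at 0.04 ± 0.15 in SU-DHL6, and the responses differed by -1.80 ± 0.20 (adjusted p 1.2e-05). DUSP7, a cytoplasmic phosphatase of ERK, fell by 1.26 ± 0.16 in OCI-LY3 (adjusted p 1.8e-05). In SU-DHL6 DUSP7 was at -0.45 ± 0.15 (adjusted p 0.0276), and relative to total counts at -0.18 with an adjusted p of 0.335. SPRY1, a Sprouty gene, rose by 0.80 ± 0.29 in SU-DHL6 (adjusted p 0.0379), a call that DESeq2 did not make (adjusted p 0.0644). The SPRY1 call was lost without any of 5 SU-DHL6 libraries (all but the third untreated one), at adjusted p 0.0662 to 0.141, and that of DUSP7 in SU-DHL6 without the second untreated, the second treated or the third treated library, at 0.0699 to 0.167.

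Upstream of RAS, 2 of 11 adaptors and exchange factors rose and 4 fell in SU-DHL6, and 3 rose and 2 fell in OCI-LY3. RASGRP1, an exchange factor that activates RAS in lymphocytes, fell in SU-DHL6 from 3.39, 4.41 and 3.11 to 1.11, 0.649 and 1.34 CPM (log2 fold change -1.82 ± 0.22, adjusted p 1.7e-05). In OCI-LY3 it stood at 41.7, 43 and 42.5 CPM untreated and 37.9, 43 and 46.1 treated. RASGRP2, an exchange factor mainly for RAP1, rose by 0.76 ± 0.12 in OCI-LY3 (adjusted p 0.000133). In SU-DHL6 RASGRP2 was at -0.46 ± 0.13 (adjusted p 0.0105), relative to total counts at -0.20 (adjusted p 0.232), and not called without the third untreated library (adjusted p 0.056). GAB2, a docking adaptor, fell in both lines, by 1.70 ± 0.24 in OCI-LY3 (adjusted p 6.2e-05) and by 1.16 ± 0.23 in SU-DHL6 (adjusted p 0.000889). SOS1, an exchange factor of RAS, rose by 0.85 ± 0.15 in SU-DHL6 (adjusted p 0.000392). In OCI-LY3 SOS1 was at 0.49 ± 0.15 (adjusted p 0.0174), which total counts brought to an adjusted p of 0.0821, and leaving out the third untreated or the third treated OCI-LY3 library to 0.0615 or more.

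Among RAS proteins and GTPase activators, 3 of 13 rose and 3 fell in SU-DHL6, and 3 rose and 5 fell in OCI-LY3. RRAS2, a relative of the RAS proteins, fell in SU-DHL6 by 0.56 ± 0.09 (adjusted p 0.000147). In OCI-LY3 RRAS2 was at -0.27 ± 0.09 (adjusted p 0.0261). That call was lost when any 1 of 5 OCI-LY3 libraries was left out (adjusted p 0.0517 to 0.0887). The RRAS2 responses of the lines did not differ by the edgeR test (adjusted p 0.0792). RASA2, a GTPase activator that switches RAS off, rose in SU-DHL6 by 0.46 ± 0.12 (adjusted p 0.00776) and fell in OCI-LY3 by 0.52 ± 0.12 (adjusted p 0.00274). RASAL3, another GTPase activator, rose in OCI-LY3 by 0.78 ± 0.12 (adjusted p 0.000132).

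Of 12 RAF, MEK and ERK kinases and scaffolds, 1 rose and 5 fell in SU-DHL6, and 3 rose and 3 fell in OCI-LY3. MAP2K1, which encodes the kinase MEK1, fell in SU-DHL6 from 104, 103 and 111 to 53.1, 51.4 and 50 CPM. Its log2 fold change was -1.04 ± 0.09 in SU-DHL6 (adjusted p 4.0e-07) and -0.27 ± 0.08 in OCI-LY3 (adjusted p 0.0193), the latter above the threshold without the first or second library of either OCI-LY3 group (0.0509 to 0.0988). PEA15, which holds ERK in the cytoplasm, moved in opposite directions. It rose in OCI-LY3 by 0.71 ± 0.10 (adjusted p 4.3e-05) and fell in SU-DHL6 by 0.79 ± 0.10 (adjusted p 2.2e-05). BRAF fell in OCI-LY3 by 0.48 ± 0.11 (adjusted p 0.00307), and in SU-DHL6 it was at 0.29 ± 0.11 with an adjusted p of 0.0488, which limma-voom brought to 0.0513. Of the 12 libraries, leaving out any of 10 took that value above the threshold (all but the first untreated and the third treated SU-DHL6 library), at up to 0.243.

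Downstream, 1 of 8 kinases activated by ERK rose and 1 fell in each line. RPS6KA4, which encodes the chromatin kinase MSK2, rose in OCI-LY3 by 1.15 ± 0.16 (adjusted p 4.3e-05) and was at 0.42 ± 0.16 in SU-DHL6 (adjusted p 0.043). The latter was above the threshold, at up to 0.143, without the first or second untreated OCI-LY3, the first untreated SU-DHL6, the first treated SU-DHL6 or the third treated SU-DHL6 library. RPS6KA1, the kinase RSK1, fell in SU-DHL6 by 0.68 ± 0.11 (adjusted p 0.000163), and RPS6KA5, the kinase MSK1, fell in OCI-LY3 by 0.94 ± 0.20 (adjusted p 0.00159). Of 11 factors regulated by ERK, 5 rose and 4 fell in SU-DHL6, and 1 rose and 3 fell in OCI-LY3. ETS1, an ETS factor abundant in lymphocytes, rose in OCI-LY3 from 235, 213 and 200 to 486, 496 and 501 CPM (log2 fold change 1.19 ± 0.11, adjusted p 1.0e-06). ETS1 was at 0.23 ± 0.11 in SU-DHL6 (adjusted p 0.106), and relative to total counts at 0.49 with an adjusted p of 0.00198. ETV3, an ETS repressor, rose in SU-DHL6 by 0.77 ± 0.11 (adjusted p 6.4e-05) and ETS2 fell there by 0.58 ± 0.10 (adjusted p 0.000409). ATXN1L, a partner of the CIC repressor, rose in SU-DHL6 by 0.44 ± 0.10 (adjusted p 0.0033) and fell in OCI-LY3 by 0.47 ± 0.10 (adjusted p 0.00199).

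Of 11 other transcripts induced by ERK, 0 rose and 4 fell in SU-DHL6 by the edgeR test, and 3 rose and 4 fell in OCI-LY3. At an unadjusted p under 0.05, 1 of them was higher in SU-DHL6 by edgeR, and DESeq2 and limma-voom each called 1 at the adjusted threshold (IER2 in each case, named after its values were seen). EGR1, an immediate early zinc finger factor, fell in SU-DHL6 from 123, 148 and 146 to 56.8, 56.9 and 41.3 CPM, a log2 fold change of -1.43 ± 0.17 (adjusted p 1.5e-05). EGR1 also fell in OCI-LY3, where it stood at 1.25, 0.983 and 0.588 CPM untreated and 0.0776, 0.301 and 0.377 treated (log2 fold change -1.87 ± 0.45, adjusted p 0.00361). FOSB, a subunit of AP-1, rose in OCI-LY3 from 2.86, 2.81 and 3.89 to 14, 28.9 and 16.9 CPM (log2 fold change 2.64 ± 0.29, adjusted p 6.1e-06) and was at -0.29 ± 0.33 in SU-DHL6.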

How the data were processed

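Gene expression was measured by RNA sequencing of 12 libraries, 3 from each of 4 groups. The deposited table holds a read count and an FPKM value per gene and library, per the file headers, and each column was mapped to a library by name (0 columns of values were left unused). How reads were aligned and counted, and with what strand setting, is not given in the sources used here. Identifiers and coordinates in the table are human, although the builds listed in the submitters' processing notes are those of mouse (GRCm38, mm10). Of 58302 genes, 97.54% had the coordinates of GENCODE 29 on GRCh38, the 10 feedback genes among them. The deposited counts may in part be rounded estimates, since 235 genes, none of them a feedback gene, had exactly 1 count in every library.

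The test was run on counts with edgeR 4.0.16 in R 4.3.3 (filterByExpr by group, TMM factors, 1 model of all 12 libraries with a coefficient per group, robust quasi-likelihood F test, Benjamini-Hochberg over 16474 genes, called at an adjusted p under 0.05). The script was tested on simulated data. The SE was taken as the log2 fold change over √F. CPM is relative to the TMM-scaled total. FPKM was used for levels between genes. A group at 0 was set to a floor of 3 counts over its 3 libraries, and intervals of count ratios are exact and cover counting error only. Compared were treated with untreated cells of each line, their difference (for genes other than the feedback genes) and the untreated lines with each other. The feedback genes and all lists were chosen with earlier results of these data known. Named were all feedback genes, and of each other list the gene with the smallest adjusted p per direction and line among those called, a part of the rule's 2, and some genes are not reported here. Alternatives were other size factors, total counts, DESeq2 1.42.0, limma-voom (limma 3.58.1), other filters, a threshold of 0.01, only the libraries compared, a replicate block and leaving out each library.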

Additional observations from a re-analysis of the deposited data

Results flagged for a closer look

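No feedback gene had its difference between the lines tested, and none is listed here. Among the other pathway genes named above, the responses of 18 differed between the lines by the edgeR test of the difference itself, given as SU-DHL6 minus OCI-LY3 on the log2 scale with SE. Of all genes tested, 36.9% differed in this way. The named genes were picked for a small adjusted p within a line, which favours genes that move in a single line. Their count is therefore not set against that share. The count over all tested pathway genes is given above. Of the phosphatases, DUSP10 differed by -1.22 ± 0.25, DUSP1 by -1.80 ± 0.20 and DUSP7 by 0.81 ± 0.22. Of the regulators of RAS, RASGRP1 differed by -1.81 ± 0.27, RASGRP2 by -1.22 ± 0.18, RASAL3 by -0.78 ± 0.17 and RASA2 by 0.98 ± 0.17. Of the kinase cascade, BRAF differed by 0.77 ± 0.16, MAP2K1 by -0.78 ± 0.12 and PEA15 by -1.50 ± 0.14. Of the kinases activated by ERK, RPS6KA4 differed by -0.73 ± 0.22, RPS6KA1 by -0.88 ± 0.15 and RPS6KA5 by 0.79 ± 0.27. Of the factors and early transcripts, ETV3 differed by 0.65 ± 0.15, ETS2 by -0.44 ± 0.14, ETS1 by -0.97 ± 0.15, ATXN1L by 0.91 ± 0.14 and FOSB by -2.93 ± 0.44. RASA2 and ATXN1L rose in SU-DHL6 and fell in OCI-LY3, and PEA15 did the reverse. BRAF was called in the directions of RASA2, and RASGRP2 in those of PEA15. The SU-DHL6 calls of BRAF and RASGRP2 were lost in some alternatives, as given above. Relative to total counts, the differences of RASAL3, RPS6KA4 and ETS2 no longer passed the test, at -0.39, -0.35 and -0.06. Leaving out 1 library took 3 differences above the threshold. They were ETS2 (6 libraries, the first and second untreated and second treated OCI-LY3 and the second untreated, the third untreated and the first treated SU-DHL6, at up to 0.0688), RPS6KA5 (8 libraries, all but the first untreated and second treated OCI-LY3 and the first untreated and first treated SU-DHL6, at up to 0.0876) and RPS6KA4 (the first treated OCI-LY3 library, at 0.0514).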

How the results depend on the processing

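The count of 6 feedback genes called in SU-DHL6 was the same with other size factors, DESeq2, limma-voom, no filter, a threshold of 0.01, only the SU-DHL6 libraries, and without each library in turn (6 to 6). It was 5 with total counts and 4 of 7 tested with a minimum of 1 CPM in 3 libraries, which left out DUSP6 and SPRY4. Between the untreated lines 5 were called in each of these. The 6 include DUSP6, and the 5 between the untreated lines include DUSP4. Both passed the main filter only through the libraries where they are high, so these counts already depended on those libraries. Without the first untreated SU-DHL6 library, which stood apart, the same counts of 6 and 5 were obtained. Leaving out 1 library at a time moved the log2 fold change in SU-DHL6 from -0.71 to 1.07 for PHLDA1 and from -3.18 to 0 for DUSP4, and the untreated difference of DUSP6 from -1.26 to 0.25. Without the second untreated SU-DHL6 library DUSP6 was at 0.02. With a threshold of 0.01, the other pathway genes called were 25 in SU-DHL6 and 23 in OCI-LY3, in place of 38 each. Genes called in all were 4961 and 5207 at that threshold, in place of 7123 and 7321. Of the called other pathway genes that ranked first in their list, 14 of 19 in SU-DHL6, 14 of 17 in OCI-LY3 and 14 of 18 differences were called in every alternative, and all kept their sign. Ranking first by adjusted p favours such stability, so these counts do not describe the other called pathway genes. Same-numbered libraries showed no shared deviation, with correlations from -0.12 to 0.0501, where differently numbered ones had -0.0962 to 0.105. This does not settle whether same-numbered cultures were set up together, and the main model did not pair them. With a replicate block the feedback genes called in SU-DHL6 were 6 and the genes called in all 6360. Depth limits DUSP4 in SU-DHL6, SPRY2, SPRY4 and DUSP6, which rest on few counts.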
